A study of Mus musculus with 48 samples.

Results

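Acer2 and 9 further genes that encode enzymes of ceramide metabolism were examined in the cerebral cortex of mice that lack 1 working copy of the chromatin remodeler gene Chd8. The 10 genes were Acer2, Acer3, Asah1, Asah2, Sphk1, Sphk2, Cers1, Cers2, Cers5 and Cers6, found by symbol among the 24444 genes of the expression table, and all 10 passed the limit on low values in each comparison. Acer2 was picked because it had the largest fall among the genes called at 12 months, so its values at 12 months are given as a description with no test. The other 9 genes were added for their place in the pathway. RNA-seq was performed on dissected cortex from 48 male C57BL/6J mice, 6 WT mice and 6 mice with the genotype Chd8 V986*/+ (hereafter HET) at each of 4 ages, embryonic day 14.5 (E14.5) and 1, 6 and 12 months. The V986* allele is a constitutive nonsense allele from a line that descends from 1 founder, so every cell type of the HET mice carried it from conception, and the WT mice were littermates. The labels give no treatment for either genotype.

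Ceramide is the common intermediate of sphingolipid metabolism and the backbone of sphingomyelin and of the glycolipids of myelin. Ceramidases split it into sphingosine and a fatty acid, sphingosine kinases phosphorylate sphingosine to the signalling lipid sphingosine-1-phosphate, and ceramide synthases join sphingoid bases to fatty acids to form ceramides again. The ceramidases are grouped by the pH at which they work and by their place in the cell: Acer2 is an alkaline ceramidase of the Golgi, Acer3 an alkaline ceramidase of the Golgi and endoplasmic reticulum, Asah1 the acid ceramidase of lysosomes and Asah2 the neutral ceramidase.

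Expression is given as variance-stabilizing transformation (VST) values, which are on a log2 scale. Their most frequent value, 2.14, was taken as the floor, although 6.06% of values lay below it. A difference of 1 stands for a 2-fold change at high values and for a larger one near the floor. Genes were called at a limma adjusted p below 0.1 over all genes tested. Chd8 checked the genotype labels: all 6 HET samples lay below all 6 WT samples at each age, with HET minus WT between -0.67 and -0.54. Mean values of a list of 6 cortical excitatory neuron markers ranged from 10.8 to 12.1 across the samples of E14.5, and 6 of 6 were higher in HET (median HET minus WT 0.36, 2 with an unadjusted p below 0.05). The summed level of 13 markers of midbrain, hindbrain and spinal cord, given as their mean VST value, ranged from 3.42 to 7.24 in the WT samples and from 3.23 to 4.37 in the HET samples at E14.5, where 13 of 13 were lower in HET (median -1.22, 5 with an unadjusted p below 0.05). None of these markers was called, and 4.56% of all genes tested at E14.5 were below that unadjusted level. In the 36 postnatal samples it ranged from 2.68 to 3.19. Because the tissue was analysed in bulk, fewer cells of a type and less RNA per cell cannot be told apart for any gene below.

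At 12 months the WT samples were not alike in genes that respond to temperature and stress. A list of 9 heat shock genes had mean VST values of 11.0, 11.15, 11.26 and 11.16 in WT replicates 1, 2, 5 and 6, but 10.36 and 10.50 in WT replicates 3 and 4. The 6 HET samples lay between 10.47 and 10.51. The cold-inducible genes Cirbp and Rbm3 showed the mirror image, with means of 9.29 to 9.48 in WT replicates 1, 2, 5 and 6 and of 10.46 and 10.41 in WT replicates 3 and 4, and the HET samples lay between 9.94 and 10.48. Results at 12 months, and the steps from 6 to 12 months, were therefore computed again without the 4 WT libraries that stood above every HET library in the heat shock list, a choice made after these values were seen. The values without them rest on 2 WT samples.

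Acer2 lies on chromosome 4 (mm9, 86520300 to 86580726, plus strand), where the annotation gives 4 transcripts, 2 of them coding. A second annotated gene entry with the same symbol, of 4130 bases, lies inside its 3′ part, and the single expression value per sample cannot be split between them. The stretch before its start is shown because Acer2 is the gene on which the results turn. In the RefSeq promoter table (GRCm38.p6), whose Acer2 sequence was matched letter for letter to mm9, the window from 250 bases before to 50 bases after the start had 73.0% G and C and 31 CpG dinucleotides, against medians of 52.7% and 7 over 32851 promoters. The first 200 bases of that window, chr4:86520068-86520267 of mm9 on the plus strand, are printed 5′ to 3′ with matches to the GC box in capitals.

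Acer2: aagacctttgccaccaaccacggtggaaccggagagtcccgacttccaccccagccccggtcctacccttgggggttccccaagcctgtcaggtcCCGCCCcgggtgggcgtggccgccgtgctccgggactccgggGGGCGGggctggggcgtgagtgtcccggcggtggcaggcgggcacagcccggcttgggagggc

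The GC box (GGGCGG on either strand) matched at 2 places, 155 and 113 bases before the start, and was present in 35.7% of all promoters of this length. The window held no match on either strand to CCAAT (37.4% of all promoters), TATAAA (13.6%), CACGTG (7.15%), TGACGTCA (1.79%), GAANNTTC (7.86%), which is a pair of heat shock element units, or TTCNNNGAA (8.30%). These matches describe letters in the window, and no binding was measured.

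Acer2 showed no genotype difference that passed the test at E14.5, 1 month or 6 months, and its values at 12 months were lower in HET mice. At E14.5 the WT samples had a lowest value of 7.80, a median of 8.23 and a highest value of 8.62, and the HET samples 8.13, 8.22 and 8.46. The HET values lay inside the WT range. The means differed by 0.03 (standard error (SE) 0.12, n = 6 per genotype, limma adjp = 0.995). Among the 12 samples of this age, after removal of group means, Acer2 had Pearson's r = 0.76 with the midbrain, hindbrain and spinal cord list (Spearman's rho 0.62) and r = -0.79 with the cortical excitatory neuron list (rho -0.71), and the part of these lists in its values at E14.5 was not tested.

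At 1 month Acer2 was lower than in the embryo in both genotypes. The WT samples ran from 6.98 through a median of 7.16 to 7.56, and the HET samples from 6.68 through 7.28 to 7.49, so that the groups overlapped almost fully. HET minus WT was -0.03 (SE 0.14, limma adjp = 0.975). At 6 months the WT samples ran from 7.51 through 8.0 to 8.32, and the HET samples from 7.40 through 7.60 to 8.50. HET replicate 2, at 8.50, was the highest of all 12 samples, whereas the other 5 HET samples were at 7.82 or lower. The difference of the means was -0.22 (SE 0.18, limma adjp = 0.824), made up of -0.03 in replicates 1 to 3 and -0.41 in replicates 4 to 6.

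At 12 months the Acer2 values of WT replicates 1 to 6 were 8.61, 8.41, 8.06, 8.35, 8.59 and 8.88. Those of HET replicates 1 to 6 were 7.77, 7.69, 7.48, 7.40, 7.41 and 7.81. The groups did not overlap, and the lowest WT sample lay 0.25 above the highest HET sample. Acer2 was chosen on these values, and the share of all genes that separate in this way is not given here. The means were 8.48 ± 0.28 in WT and 7.59 ± 0.19 in HET (SD, n = 6), a difference of -0.89 (SE 0.12) that puts the HET mean at 53.9% of the WT mean on the linear scale. In the comparison that served to choose it, 8 of 17288 genes (0.0463%) were called, 7 of them lower in HET. Acer2 had the largest decrease among those 7, ahead of Dio3 (-0.81) and Aass (-0.64). By size alone it ranked 8, since 7 genes that were not called had larger decreases.

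**Figure D1:**
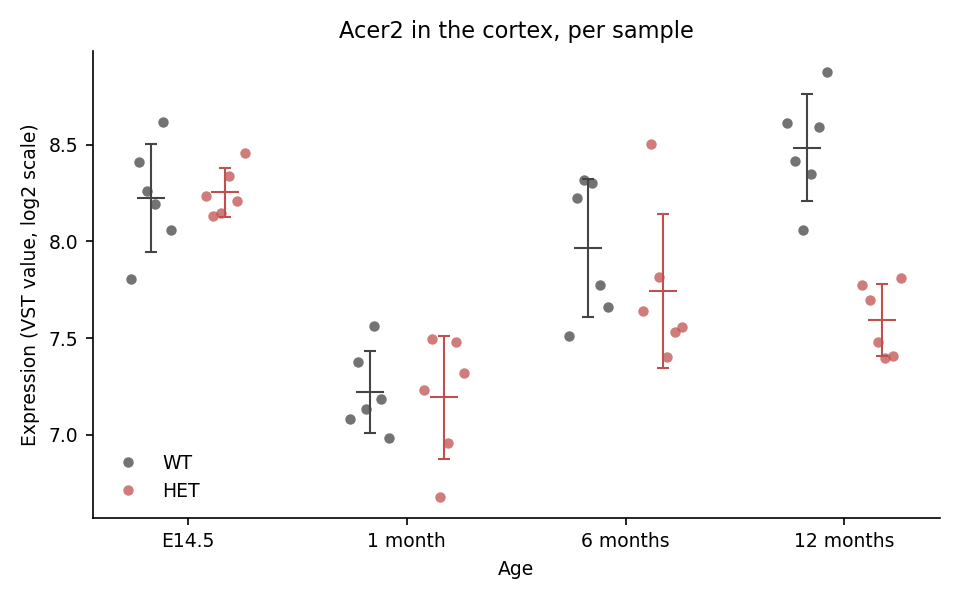
Acer2 expression (VST value, log2 scale) in each cortex sample by age, WT in grey and HET in red, with a horizontal mark at the group mean and bars of 1 SD (n = 6 per group). The groups overlap at E14.5, 1 month and 6 months, and at 12 months every HET sample (7.40 to 7.81) lies below every WT sample (8.06 to 8.88). Acer2 was chosen on its values at 12 months.

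The difference at 12 months was present in both sets of replicates, at -0.71 in replicates 1 to 3 and -1.07 in replicates 4 to 6, without overlap in either. Leaving out 1 sample at a time gave differences from -0.97 to -0.81. The same samples served to choose Acer2, so these values are no separate support for its difference. The 4 WT samples with the high heat shock list also had the 4 highest Acer2 values of all samples of this age, 8.41 to 8.88. WT replicates 3 and 4 had 8.06 and 8.35, the 2 lowest WT values and still above every HET sample. With those 4 WT libraries left out, HET minus WT of Acer2 was -0.61 (SE 0.13). Acer2 was then not among the genes called, so it would not have been chosen by its rule without these libraries. With 2 WT samples left, the calls over all genes also fell, from 8 to 1.

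Several lists also had other values in HET than in WT at 12 months, and their part in its difference was not tested. All 9 heat shock genes had lower means in HET, with a median HET minus WT of -0.38 against 0.00 over all genes tested, and 7 of them had an unadjusted p below 0.05, a level reached by 11.6% of all genes tested. All 6 glucocorticoid-induced genes had lower means as well (median -0.35, 2 with an unadjusted p below 0.05), as had 6 of 8 p53 targets (median -0.10, 2 below 0.05). The largest decreases were -0.84 in the heat shock list, -0.45 in the glucocorticoid-induced list and -0.88 among the p53 targets, beside -0.89 for Acer2. Of 8 endothelial markers, 7 were lower (median -0.14, 3 below 0.05), and the mean of the list ran from 9.15 to 9.35 in WT and from 8.90 to 9.38 in HET. All 7 striatal markers were lower (median -0.32, 1 below 0.05), with list means of 10.50 to 10.96 in WT and 9.83 to 10.77 in HET. No gene of these 5 lists was called, and no defining marker of the endothelial or striatal list was at the floor in every sample. Without the 4 WT libraries the medians were 0.01 for the heat shock list, 0.03 for the glucocorticoid-induced genes, -0.02 for the p53 targets, -0.13 for the endothelial markers and -0.11 for the striatal markers. In these 5 lists 0 genes then had an unadjusted p below 0.05, where 5.52% of all genes did. The heat shock list itself chose the libraries left out, so its values without them follow largely from that choice. The cold-inducible genes Cirbp and Rbm3 did not become even. With all samples both were higher in HET (median 0.49, 2 below 0.05). Without the 4 WT libraries both were lower (median -0.21, 1 below 0.05, 0 called).

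At the younger ages the heat shock list did not differ in this way, with medians of 0.02, 0.01 and 0.04 at E14.5, 1 month and 6 months and no gene at an unadjusted p below 0.05. Other lists did differ at younger ages. At 1 month 5 of 6 glucocorticoid-induced genes were higher in HET (median 0.28, 4 with an unadjusted p below 0.05, 1 called). All 7 striatal markers were higher at that age (median 0.38, 0 below 0.05). Of 8 endothelial markers, 7 were lower at 1 month (median -0.16, 1 below 0.05) and 7 higher at 6 months (median 0.18, 0 below 0.05). The p53 target medians were -0.06, 0.02 and -0.03 at E14.5, 1 month and 6 months. After removal of group means, Pearson's r of Acer2 with the heat shock list was 0.45 at 1 month and 0.52 at 6 months (Spearman's rho 0.38 and 0.53, 12 samples each). With the p53 target list r was 0.27 at 1 month and 0.82 at 6 months (rho 0.08 and 0.76), and with the glucocorticoid-induced list it was 0.05 and 0.67 (rho -0.05 and 0.54). With the endothelial list it was 0.80 at 1 month and 0.31 at 6 months (rho 0.72 and 0.27), and with a list of 6 mural cell markers it was 0.78 and 0.17 (rho 0.64 and 0.20). At E14.5 r was 0.68 with the heat shock list (rho 0.56), 0.78 with the glucocorticoid-induced list (rho 0.68) and 0.58 with the p53 targets (rho 0.36). It was 0.04 with the endothelial list, 0.16 with the mural list and -0.68 with the striatal list (rho 0.17, 0.31 and -0.48). At 12 months r was 0.65 with the heat shock list (rho 0.45) and 0.72 with the glucocorticoid-induced list (rho 0.76). With the p53 targets it was 0.83 (rho 0.73). It was -0.01 with the endothelial list and 0.14 with the mural list (rho 0.08 and 0.24). With the striatal list it was -0.26, -0.41 and 0.60 at 1, 6 and 12 months (rho -0.29, -0.56 and 0.58). With Cirbp and Rbm3 it was -0.59, -0.49, -0.42 and -0.75 at E14.5, 1, 6 and 12 months (rho -0.56, -0.41, -0.22 and -0.73). These are descriptions across libraries that share their normalization and the tissue dissection. In HET at 12 months the heat shock list spanned only 10.47 to 10.51, so its r at that age rests mostly on the WT samples.

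**Figure D2:**
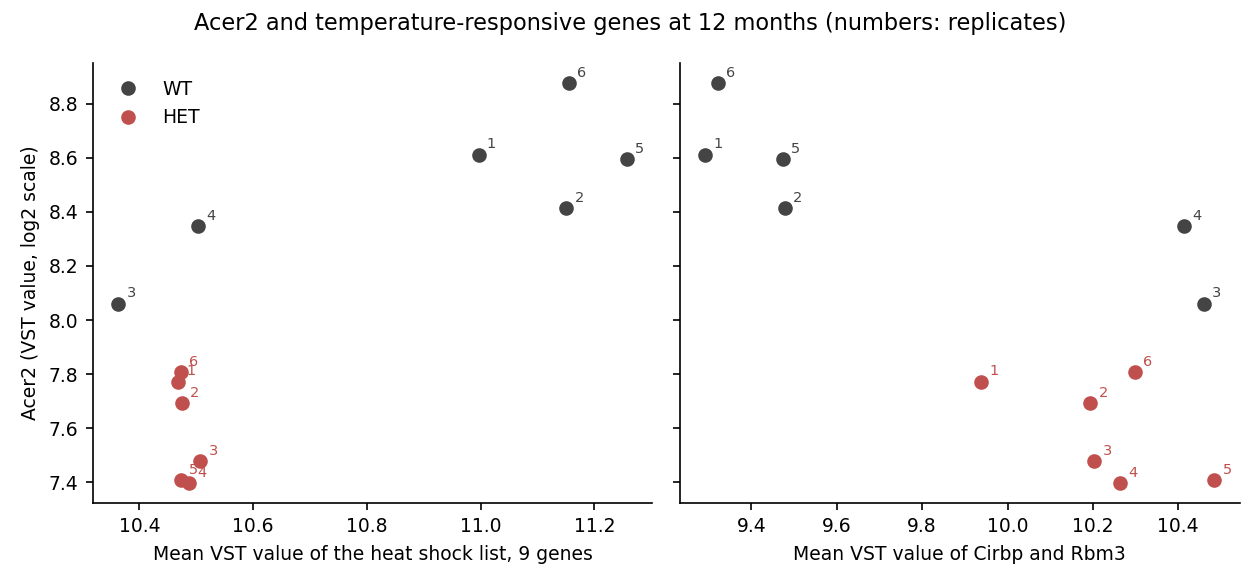
Acer2 (VST value) in the 12 samples of 12 months against the mean VST value of 9 heat shock genes (left) and of the cold-inducible genes Cirbp and Rbm3 (right), WT in grey and HET in red, numbered by replicate. WT replicates 1, 2, 5 and 6 stand apart in both lists, and WT replicates 3 and 4 lie near the HET samples in the heat shock list but above all of them in Acer2.

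Over age, the mean level of Acer2 was highest in WT mice of 12 months (8.48) and lowest at 1 month in both genotypes (7.22 in WT and 7.19 in HET). Between these lay HET and WT at E14.5 (8.25 and 8.22), WT and HET at 6 months (7.96 and 7.74) and HET at 12 months (7.59). Each group's samples overlapped those of its neighbour in this order. From E14.5 to 1 month Acer2 fell by 1.00 in WT (SE 0.13, limma adjp = 2.9e-06) and by 1.06 in HET (SE 0.13, limma adjp = 7.8e-07). From 1 to 6 months it rose by 0.74 in WT (SE 0.14, limma adjp = 0.0017) and by 0.55 in HET (SE 0.17, limma adjp = 0.034). From 6 to 12 months, given without a test, the means differed by 0.52 in WT and by -0.15 in HET. Without the 4 WT libraries the step in WT was 0.24.

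Acer2 also varied more between mice of one group than most genes. Its SD exceeded the median SD of all genes in 7 of the 8 groups. At 6 months its SD was 0.36 in WT and 0.40 in HET, where the median gene had 0.13 in both, and at 12 months it was 0.28 and 0.19 against 0.18 and 0.12.

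The other 9 enzymes gave no call between genotypes at any age. At E14.5, limma called 0 of the 10 genes, of which 0 had an unadjusted p below 0.05, where 0.00593% of 16877 genes were called. At 1 month 0 of 10 were called, again with 0 below an unadjusted 0.05, against 0.139% of 17221 genes. At 6 months 0 of 10 were called and 1, Cers2, had an unadjusted p below 0.05, against 0.0927% of 17256 genes called and 7.59% below that unadjusted level. At 12 months 0 of the 9 genes other than Acer2 were called and 0 were below an unadjusted 0.05, and their differences ran from -0.07 to 0.18. Without the 4 WT libraries these 9 differences ran from -0.15 for Sphk1 to 0.05 for Cers6.

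**Figure D3:**
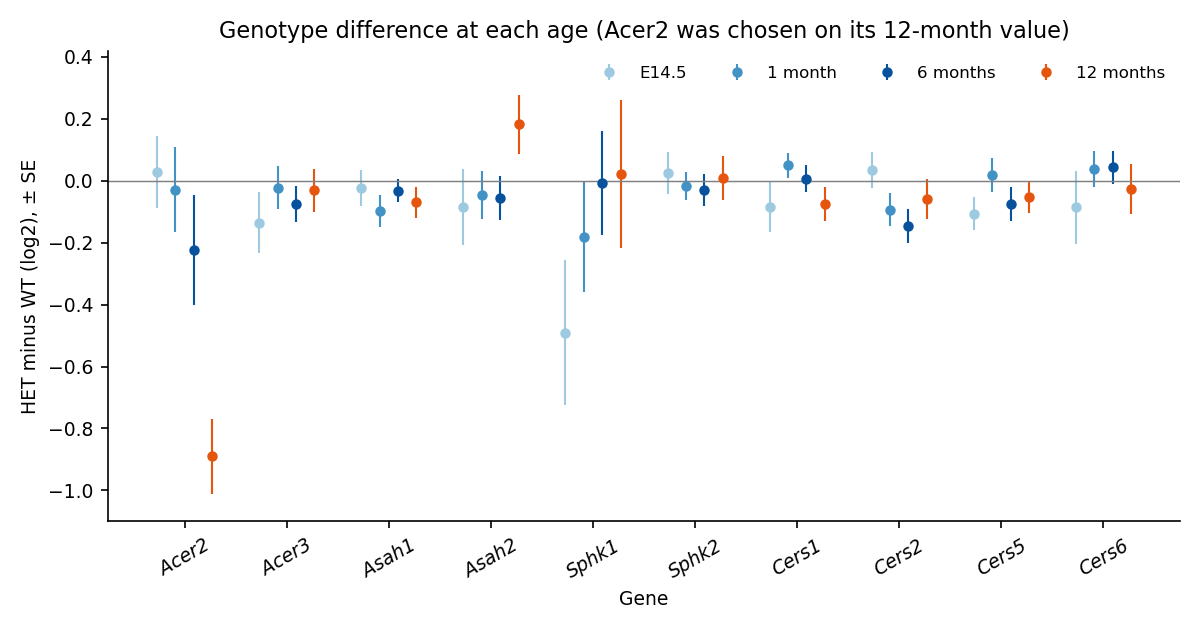
HET minus WT on the log2 scale for the 10 enzyme genes at E14.5, 1, 6 and 12 months, points with bars of 1 SE from the limma fit (n = 6 per genotype and age). The value of Acer2 at 12 months (-0.89), which chose the gene, is the lowest, followed by Sphk1 at E14.5 (-0.49, SE 0.23), and the remaining points lie between -0.22 and 0.18.

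Among the ceramidases, Acer3, the second alkaline enzyme, had HET minus WT of -0.14 at E14.5 and between -0.08 and -0.02 at the later ages (limma adjp at least 0.816). At 12 months, where Acer2 differed, Acer3 ran from 8.37 to 8.56 in WT and from 8.34 to 8.59 in HET, nearly the same range. Asah1, the lysosomal enzyme whose loss causes Farber disease, had small negative differences at each age, from -0.10 at 1 month (SE 0.05, limma adjp = 0.608) to -0.02 at E14.5.

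Asah2, the neutral ceramidase, was the ceramidase with a positive difference at 12 months. Its WT samples had a lowest value of 8.71, a median of 9.09 and a highest value of 9.37, and its HET samples 9.20, 9.28 and 9.31. The HET samples were tightly grouped inside a wide WT range, with SDs of 0.04 and 0.26. The difference was 0.18 (SE 0.10, limma adjp = 0.462). Without the 4 WT libraries it was -0.02 (SE 0.06, limma adjp = 0.979).

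Of the sphingosine kinases, Sphk1 had low values, at which the VST scale understates change. At E14.5 its WT samples had values of 4.76, 5.11 and 5.39 (lowest, median and highest) and its HET samples 3.49, 4.74 and 5.07. In HET, 3 samples lay below every WT sample, and the others overlapped. The difference of -0.49 (SE 0.23) did not pass (limma adjp = 0.982). At 1 month it was -0.18 (SE 0.18), composed of -0.63 in replicates 1 to 3 and 0.27 in replicates 4 to 6, and at 6 and 12 months it was -0.01 and 0.02. Sphk2, which encodes the second kinase, had differences between -0.03 and 0.03 at all 4 ages, with SEs of 0.05 to 0.07.

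Of the 4 ceramide synthases among the 10 genes, Cers2, which makes ceramides with very long acyl chains and is prominent in oligodendrocytes, had the lowest unadjusted p for a genotype difference. At 6 months its WT samples had a lowest value of 10.13, a median of 10.28 and a highest value of 10.36, and its HET samples 10.02, 10.09 and 10.27. In HET, 4 of 6 samples were below every WT sample. HET minus WT was -0.15 (SE 0.05, limma adjp = 0.535). At the same age 8 of 8 oligodendrocyte markers were lower in HET, with a median of -0.23, and 7 of them had an unadjusted p below 0.05, although none was called. The mean of that list ran from 12.61 to 12.77 in WT and from 12.26 to 12.59 in HET, and its part in the value of Cers2 was not tested. For the marker list the medians were 0.00, -0.02 and -0.01 at E14.5, 1 month and 12 months. The difference of Cers2 at 1 and 12 months was -0.09 and -0.06, and at E14.5 it was 0.03.

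Cers1, the synthase of neurons that favours stearoyl chains, had differences from -0.08 at E14.5 to 0.05 at 1 month. Cers5 and Cers6, both of which favour palmitoyl chains, ranged from -0.11 to 0.02 and from -0.09 to 0.04 over the 4 ages. For Cers5 the lowest value was that of E14.5 (SE 0.05, limma adjp = 0.982), where the WT samples ran from 9.87 to 10.10 and the HET samples from 9.76 to 9.95. Cers6 at 12 months showed the same unequal spread as Asah2, with WT from 10.55 to 11.16 (SD 0.21) and HET from 10.71 to 10.88 (SD 0.07).

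The change of the genotype difference between neighbouring ages was tested in a limma fit of all 48 samples. From E14.5 to 1 month, 0 of 10 enzyme genes and 0 of 17311 genes (0%) were called, and from 1 to 6 months again 0 of 10 and 0% of all genes. From 6 to 12 months, 0 of the 9 genes other than Acer2 were called, against 0.0578% of all genes. In each of the 3 tests 0 of these enzyme genes had an unadjusted p below 0.05. For Acer2 the difference moved by -0.67 from 6 to 12 months (SE 0.22), or by -0.39 (SE 0.27) without the 4 WT libraries, and has no test because it contains the chosen value.

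More of the enzyme genes were called between ages than between genotypes. From E14.5 to 1 month, 10 of 10 were called in WT and 10 of 10 in HET, 7 higher and 3 lower in each. Of all genes 85.7% were called in WT (43.4% higher and 42.3% lower) and 86.1% in HET (43.7% higher and 42.4% lower), so the count is near that of genes in general. Asah2 rose most, by 2.11 in WT (SE 0.11, limma adjp = 2.5e-11) and 2.15 in HET, from a WT median of 6.33 at E14.5 to 8.48 at 1 month with no overlap. Cers1 rose by 1.76 in WT (SE 0.07) and 1.89 in HET, Acer3 by 1.39 in WT, and Sphk1 by 1.51 in HET (SE 0.23). Cers2, Sphk2 and Asah1 rose by smaller amounts, 0.75, 0.55 and 0.54 in WT.

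The 3 genes that fell were Acer2 and the palmitoyl-type synthases. Cers6 fell by 0.61 in WT (SE 0.08) and 0.48 in HET, and Cers5 by 0.47 and 0.35. The median over all genes was 0.02 in both genotypes. Quantile normalization moved this median to -0.11, and the 10 genes kept their directions and calls. Values at E14.5 were taken beside the wide range of midbrain and hindbrain markers given above, and, for Acer2, beside its correlation with them at that age. The part of these markers in the steps was not tested.

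**Figure D4:**
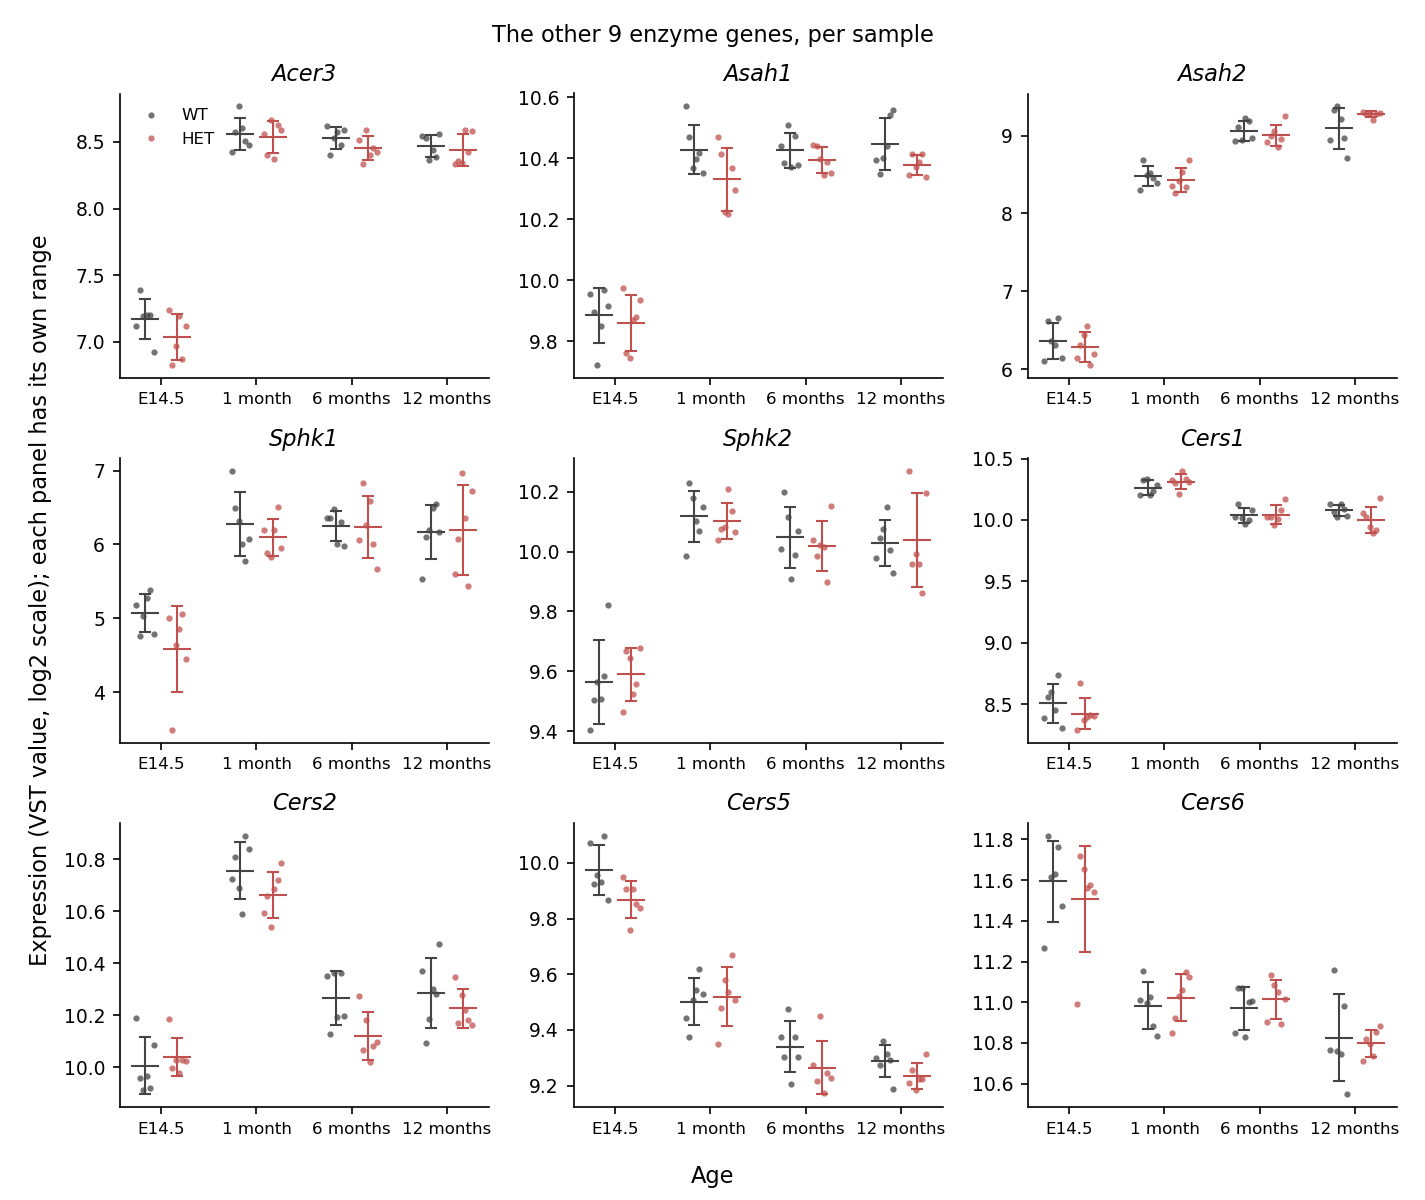
Expression (VST value, log2 scale) of the 9 enzyme genes other than Acer2 in each sample by age, WT in grey and HET in red, with group mean and 1 SD (n = 6), each panel on its own range. From E14.5 to 1 month 7 panels rise and Cers5 and Cers6 fall, Asah2 rises again by 6 months, and the 2 genotypes overlap in every panel and age.

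From 1 to 6 months, 5 of 10 genes were called in WT (24.6% of all genes were) and 5 of 10 in HET (26.8%), and they were the same 5, 2 higher and 3 lower. Of all genes 12.3% were higher and 12.3% lower in WT, and 14% higher and 12.8% lower in HET. Acer2 and Asah2 rose, Asah2 by 0.59 in WT (SE 0.07, limma adjp = 3.35e-05) and by 0.57 in HET (SE 0.08). Cers2 fell by 0.49 in WT (SE 0.06, limma adjp = 2.0e-05) and by 0.54 in HET, from WT values of 10.59 to 10.89 at 1 month to 10.13 to 10.36 at 6 months without overlap. Cers1 fell by 0.22 and 0.27, and Cers5 by 0.16 in WT (SE 0.05, limma adjp = 0.045) and 0.25 in HET. Acer3, Asah1, Sphk1, Sphk2 and Cers6 differed by at most 0.14 in either genotype and did not pass. The fall of Cers5 in WT lost its call without WT replicate 4 of 6 months (-0.13, limma adjp = 0.102).

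From 6 to 12 months limma called 0 of the 9 genes other than Acer2 in WT, where 0.00579% of all genes were called and 0 of these 9 had an unadjusted p below 0.05. In HET 2 of 9 were called, 1 in each direction, against 3.43% of all genes, of which 1.07% were higher and 2.36% lower. Asah2 rose in HET by 0.27 (SE 0.06, limma adjp = 0.031), from a range of 8.86 to 9.25 to one of 9.20 to 9.31. Cers6 fell in HET by 0.21 (SE 0.05, limma adjp = 0.031), from 10.89 to 11.13 to 10.71 to 10.88 without overlap. In WT the same steps were 0.03 for Asah2 and -0.14 for Cers6, and without the 4 WT libraries they were 0.23 and -0.22. The steps of the 2 genotypes did not differ by test, with a change of the genotype difference of 0.24 for Asah2 (SE 0.14, limma adjp = 0.640) and -0.07 for Cers6 (SE 0.13, limma adjp = 0.909).

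The other genes of the sphingolipid pathway were taken from 10 lists with 61 genes in the table, of which 60 were tested at each age. None of the 60 was called by limma at any age. At 12 months 24 were higher and 36 lower in HET, with a median of -0.02 against 0.00 over all genes, and 6 had an unadjusted p below 0.05, 1 higher and 5 lower. That is 6 of 60, where 11.6% of all genes tested had an unadjusted p below 0.05. At E14.5 2 of the 60 were below that unadjusted level (4.56% of all genes were), at 1 month 7 (8.80% of all genes) and at 6 months 8 (7.59% of all genes). At 12 months without the 4 WT libraries 19 of the 60 were higher and 41 lower, with a median of -0.04, and 1 was below the unadjusted level.

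Upstream of ceramide, the gene of its list with the lowest p was Ormdl2, which encodes an inhibitor of serine palmitoyltransferase, the enzyme that starts sphingolipid synthesis, at -0.25 at 12 months (SE 0.08, limma adjp = 0.287). For the desaturase Degs1, which converts dihydroceramide to ceramide, the value at 12 months was -0.11 (limma adjp = 0.493). Of the other ceramide synthases, Cers4 had -0.17 at 6 months (limma adjp = 0.508).

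Downstream, the sphingosine-1-phosphate exporter Spns2 had -0.18 at 12 months (SE 0.06, limma adjp = 0.293), and Plpp2, a lipid phosphate phosphatase, had -0.21 at E14.5 (limma adjp = 0.982). In the sphingomyelin list Smpdl3b had 0.32 at 6 months (SE 0.11, limma adjp = 0.508). The glycolipid transfer protein Gltp had -0.12 at 1 month (limma adjp = 0.480), and Fa2h, which hydroxylates the fatty acids of myelin lipids, had -0.24 at 6 months (SE 0.07, limma adjp = 0.377), beside the oligodendrocyte marker median of -0.23 at that age given above. Hexa, a subunit of the lysosomal hexosaminidase mutated in Tay-Sachs disease, was nearest to a call, with -0.33 at 12 months (SE 0.09, limma adjp = 0.208). In its list of 11 lysosomal genes 10 were lower in HET at 12 months, with a median of -0.09. Without the 4 WT libraries the values at 12 months were -0.13 for Hexa, -0.17 for Ormdl2, -0.12 for Spns2 and -0.05 for Degs1 (limma adjp at least 0.873), and 9 of the 11 lysosomal genes were lower, with a median of -0.10. Acer1, the remaining alkaline ceramidase, was in the table but below the limit on low values and was not tested.

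**Figure D5:**
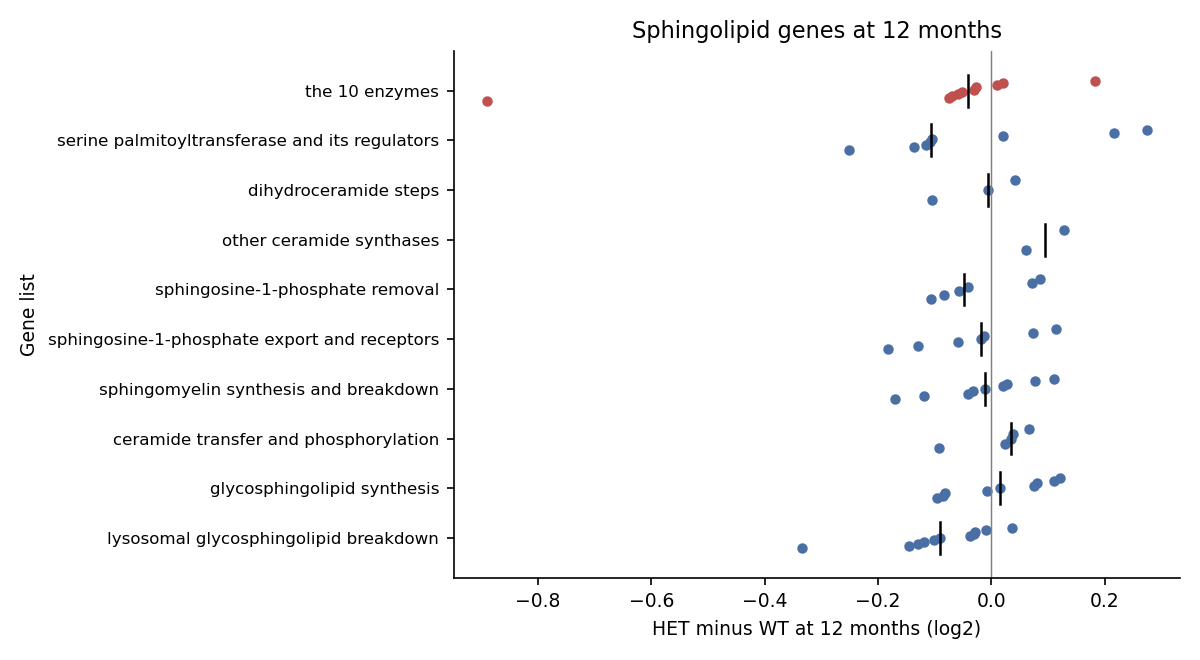
HET minus WT at 12 months (log2) of each tested gene of the sphingolipid lists, 1 point per gene, with a black line at the median of each list, and the 10 enzyme genes in red. Acer2 (-0.89) lies apart from the other points, which run from -0.33 to 0.27.

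Few enzyme genes moved together between mice. Over the 36 postnatal samples, after removal of group means, the 45 pairs of the 10 genes had a median Pearson's r of 0.01. The pair Sphk2 and Cers1 had r = 0.68 (Spearman's rho 0.61), the one pair above 0.5, and Asah1 and Asah2 had r = -0.50 (rho -0.42). Acer2 had r between -0.13 and 0.35 with the other 9, highest with Asah1. These pooled values cover differences by age. With Asah2 r was 0.07, 0.21 and -0.72 at 1, 6 and 12 months. With Cers2 it was 0.08, -0.18 and 0.56, with Cers1 0.12, -0.17 and 0.51, and with Asah1 0.47, 0.29 and 0.36. At 12 months Asah2 had an SD of 0.26 in WT and 0.04 in HET, so its -0.72 rests mostly on the WT samples.

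The genes most like Acer2 were not among the enzyme genes examined here. Over all 48 samples, in which age differences take part, the highest of 17311 genes were G3bp2 (r = 0.79), Pja1 (0.77), Cstf2t (0.77), Cd99l2 (0.76) and the endothelial adhesion gene Pecam1 (0.74). Over the 36 postnatal samples with group means removed, the highest of 17257 genes were Adgrl4 (r = 0.80, rho 0.74), an adhesion receptor gene of endothelial cells, Acsl3 (0.77), Abcc4 (0.76), Angpt2 (0.76), which encodes a ligand of the endothelial receptor Tek, and Serinc3 (0.76). The lowest were Ctu2 (-0.75), Haghl (-0.74) and Trpm4 (-0.74). Without the 2 samples farthest in Acer2, r with Adgrl4 was 0.75. The list of 8 endothelial markers had a lower r with Acer2 over the same 36 samples, 0.43. By age, r was 0.80, 0.31 and -0.01 for that list at 1, 6 and 12 months, and 0.76, 0.82 and 0.84 for Adgrl4. Adgrl4 had a mean of 9.94 ± 0.48 in WT and 9.33 ± 0.12 in HET at 12 months (SD, n = 6), a difference of -0.61 (SE 0.16, limma adjp = 0.223), and differences of -0.01, 0.08 and 0.08 at the earlier ages. Without the 4 WT libraries the difference at 12 months was -0.17 (SE 0.09, limma adjp = 0.873). These correlations are descriptions over libraries that share their normalization.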

How the data were processed

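Cortex RNA was sequenced from 48 mice. According to the study's methods and the labels' processing notes, the authors filtered reads by quality, trimmed them, aligned them to mm9 with STAR 2.5.2b, quantified transcripts with Salmon 0.11.3 and normalized them with DESeq2. The values deposited by the authors are VST values on a log2 scale, in a single table. Its most frequent value, 2.1433, held by 15.7% of values, was taken as the floor, and 6.06% of values lay below it. Replicates 1 to 3 and 4 to 6 had the same mean for each gene (largest gap 3.4e-14). Any shift between the 2 sets was therefore taken out before deposit and cannot be examined here. The labels name a TruSeq kit and the methods a stranded KAPA kit. Depth per gene cannot be taken from these values, so no counting intervals were computed.

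Groups came from the labels. Genes with a mean at least 0.5 above the floor over the samples compared were fitted with limma 3.58.1 (R 4.3.3) with an intensity trend and Benjamini-Hochberg adjustment over all genes, and called at adjusted p below 0.1. Count models were not used, since the values are not counts. The fit was tested on simulated data. The named genes were the 10 enzymes, the gene with the lowest unadjusted p in each sphingolipid list, and the genes with the 5 highest (and, over 36 samples, 3 lowest) correlations with Acer2. The members and lists were chosen with earlier results of these data known. Alternatives were a replicate block, other filters, no trend, quantile normalization, a fit of all samples, read depth or replicate set as covariate, single replicate sets and leaving out each sample. Python 3.11.15 and pandas 2.3.3 were used.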

Additional observations from a re-analysis of the deposited data

Results flagged for a closer look

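Dixon's ratio was computed in the 80 groups of 6 samples given by the 10 enzyme genes, and 5 groups had a sample beyond the 95% critical value for groups of this size, where chance gives about 1 in 20, or 4 groups. Cers6 in HET at E14.5 had replicate 1 at 10.99, below the next sample at 11.54, and the same sample was the highest for Cers2, at 10.18 with the next at 10.03. Cers1 in HET at E14.5 had replicate 2 at 8.67, above the next at 8.41. Cers5 in HET at 6 months had replicate 3 at 9.45, above the next at 9.27. Asah2 in HET at 12 months had replicate 4 at 9.20, below the next at 9.27, in a group whose SD was 0.04. No Acer2 group was among the 5.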

How the results depend on the processing

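Leaving aside Acer2 at 12 months, which was chosen on its call, the count of enzyme genes called was the same in each comparison under each alternative that kept all samples. With the 4 WT libraries of 12 months that had the high heat shock list left out, which was chosen after seeing the data and leaves 2 WT samples, 0 enzyme genes and 1 gene in all were called between genotypes at 12 months. The 1 enzyme gene called there with all samples was Acer2.

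Counts over all genes moved more. At E14.5 the 1 gene called became 2 under the replicate block, the stricter filter, quantile normalization and the replicate set covariate, 3 without a filter, 0 without the trend and 120 in the fit of all 48 samples. At 1 month 24 became 13 under the block and 37 in the fit of all samples. At 6 months 16 became 30 under the block, 4 without the trend and 2 with read depth as a covariate. At 12 months 8 became 2 under the block, 520 in the fit of all samples and 3 with read depth. The cause was not tested. Leaving out 1 sample gave 0 to 2 calls at E14.5, 3 to 32 at 1 month, 5 to 21 at 6 months and 2 to 251 at 12 months, the last without WT replicate 3. Apart from Acer2 at 12 months, 0 enzyme genes were called between genotypes in these fits. In the age steps they ranged from 4 to 5 in WT and 5 to 6 in HET between 1 and 6 months, and were 10 in both genotypes, 0 in WT and 2 in HET otherwise.

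Same-numbered samples of the 2 genotypes correlated in their deviations with a mean r of 0.23 at E14.5, where 4 of 6 pairs were above 0.1 and 4 of 6 samples correlated best with their own number, and of 0.02, 0.05 and -0.03 at the later ages. With 6 pairs at each age and some below 0.1 at every age, the numbers were not taken to pair the samples, although they were related in part at E14.5. The replicate block changed no call of an enzyme gene. The 6 values per group limit the differences that can be seen.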
